A study of Rattus norvegicus with 6 samples.

Results

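The complement cascade is represented here by 9 genes, *C1qa*, *C1qb*, *C1qc*, *C1r*, *C1s*, *C2*, *C3*, *Serping1* and *C5ar1*, taken by symbol from the 22050 genes of the deposited table, where each symbol matched 1 row. The libraries came from spinal cord tissue of young adult male Sprague-Dawley rats, 3 after sham surgery and 3 after spared nerve injury (SNI-NP rats), a model of neuropathic pain made by cutting or tying parts of the sciatic nerve while sparing the sural nerve. The sample labels do not give the time after surgery, the side or the level of the cord, and number the libraries without stating that each is a separate rat, so that the p-values measure the spread between these libraries. All 9 genes passed the filter on low counts and entered the test of 14426 genes.

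Complement is a chain of blood and tissue proteins that marks cells and debris for removal. In the classical pathway C1q binds a target and activates the proteases C1r and C1s, which cut C4 and C2 to build an enzyme that splits C3, and the later steps release C5a, which attracts immune cells through its receptor. In the central nervous system microglia are the main source of C1q, and complement is known for tagging synapses for removal and for its activation after nerve injury.

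The total estimated counts were between 16670760 and 18151156 per library, and a gene with 0 counts may have been at up to 0.167 to 0.18 CPM (the count scaled to library size with TMM factors), a limit set by counting error only. Genes typical of peripheral myelin (4 of 4 detected) summed to 19100 to 23210 CPM in the sham libraries and 21640 to 28810 CPM in the SNI-NP libraries, and genes typical of dorsal root ganglion neurons (7 of 7 detected) summed to 623 to 1250 CPM and 213 to 1692 CPM. The libraries therefore held transcripts of peripheral nerve beside those of spinal cord, and in bulk tissue fewer cells of a type and less RNA per cell cannot be told apart.

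No difference between SNI-NP and sham libraries that exceeded the spread between libraries was found for any of the 9 complement genes. With edgeR's quasi-likelihood test and Benjamini-Hochberg adjustment, 0 of the 9 had an adjusted p-value under 0.05, as was the case for 0 (0%) of all genes tested. Without adjustment, 0 of the 9 were under 0.05 too, against 10.8% of all genes tested, and the count was 0 of the 9 by DESeq2 and by limma on the FPKM values (the count scaled by gene length and library total). In 0 of the 9 genes did the groups separate without overlap, against 18.5% of all genes tested. The median log2 fold change over the 9 genes was 0.03, and 0.01 over all genes tested. What the 9 genes shared was a wide spread among the sham libraries, with sham replicate 1 low and sham replicate 2 high.

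The promoters of the members found in RefSeq are shown first. The levels of the members moved together from library to library, and the part of the promoters in this was not tested. Of the 9 members, 4 had an entry in the RefSeq promoter table of build GRCr8, which is not the build of the deposited counts. The 250 bases before the start of each gene are given 5′ to 3′ on the gene's strand. The stretches are chr5:154419934-154420183 (minus strand) for *C1qa*, chr5:154407828-154408077 (minus strand) for *C1qb*, chr4:159098763-159099012 (plus strand) for *C1r* and chr9:2201340-2201589 (minus strand) for *C3*. Capitals mark every match, on either strand, to 5 motifs that were chosen with the levels known, and none of these matches overlapped another.
C1qa: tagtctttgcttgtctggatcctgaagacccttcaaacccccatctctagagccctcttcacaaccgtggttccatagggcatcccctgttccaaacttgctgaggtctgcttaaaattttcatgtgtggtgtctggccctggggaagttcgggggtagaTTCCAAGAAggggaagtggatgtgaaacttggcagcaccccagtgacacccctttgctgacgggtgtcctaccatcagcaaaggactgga
C1qb: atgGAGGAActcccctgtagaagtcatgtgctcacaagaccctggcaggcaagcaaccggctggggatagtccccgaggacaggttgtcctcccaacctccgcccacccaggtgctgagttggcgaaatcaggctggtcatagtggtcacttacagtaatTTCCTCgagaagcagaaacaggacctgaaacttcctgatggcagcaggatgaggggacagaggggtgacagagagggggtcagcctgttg
C1r: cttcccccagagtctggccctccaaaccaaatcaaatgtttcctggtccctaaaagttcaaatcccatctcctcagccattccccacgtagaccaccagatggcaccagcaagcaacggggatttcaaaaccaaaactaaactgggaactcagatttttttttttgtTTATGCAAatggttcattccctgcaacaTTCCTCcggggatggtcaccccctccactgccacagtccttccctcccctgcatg
C3: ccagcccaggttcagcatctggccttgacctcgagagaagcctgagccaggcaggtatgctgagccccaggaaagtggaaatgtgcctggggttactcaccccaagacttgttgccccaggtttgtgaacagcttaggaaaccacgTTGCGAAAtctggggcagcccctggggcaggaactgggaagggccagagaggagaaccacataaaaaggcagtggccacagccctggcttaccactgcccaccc

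The motifs were GAGGAA for PU.1, a transcription factor of myeloid cells, TTCNNNGAA for STAT factors, TTGCNNAA for C/EBP factors, GAAANNGAA for interferon regulatory factors and TATAAA for the TATA box. The *C1qa* stretch held 1 STAT match, at position -90 counted from the start. The *C1qb* stretch held 2 PU.1 matches, at -247 and -90. The *C1r* stretch held 1 C/EBP match at -83 and 1 PU.1 match at -55, and the *C3* stretch 1 C/EBP match at -104. Among 33469 promoters of the same length, 23.3% held the PU.1 letters, 7.67% the STAT letters, 9.22% the C/EBP letters, 8.12% the interferon factor letters and 12.9% the TATA letters, and the 4 stretches held 0 matches to the last 2. A match is a run of letters and not a measured binding site. In RefSeq *C1qb*, *C1qc* and *C1qa* follow one another on chromosome 5 with 0 other coding genes between them, and *C1r* and *C1s* are neighbours on chromosome 4.

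The 3 chains of C1q, the recognition molecule that opens the classical pathway, were detected at similar levels, and none passed the test between the groups. *C1qa* (ENSRNOG00000012807), the A chain, was at 63.0, 114 and 95.6 CPM in sham replicates 1, 2 and 3, and at 72.6, 93.2 and 97.0 CPM in SNI-NP replicates 1, 2 and 3. All 3 SNI-NP values lay inside the range of the sham values. The sham mean was 90.8 ± 25.7 CPM and the SNI-NP mean 87.6 ± 13.1 CPM (here and below ± gives the SD, n = 3), and the log2 fold change was -0.05 (SE, the standard error of a log2 fold change, 0.22, 95% interval -0.57 to 0.47, adjusted p = 0.95 by edgeR).

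*C1qb*, the B chain, was at 46.5, 84.1 and 65.5 CPM in the sham libraries and at 53.4, 64.1 and 68.8 CPM in the SNI-NP libraries. *C1qc*, the C chain, was at 64.1, 122 and 99.0 CPM in the sham libraries and at 83.2, 100.1 and 115.5 CPM in the SNI-NP libraries. Both genes again had their lowest value in sham replicate 1 and their highest in sham replicate 2, with the SNI-NP libraries between them. The log2 fold change was -0.07 for *C1qb* (SE 0.21, edgeR adjusted p = 0.917) and 0.07 for *C1qc* (SE 0.24, edgeR adjusted p = 0.935).

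**Figure D1:**
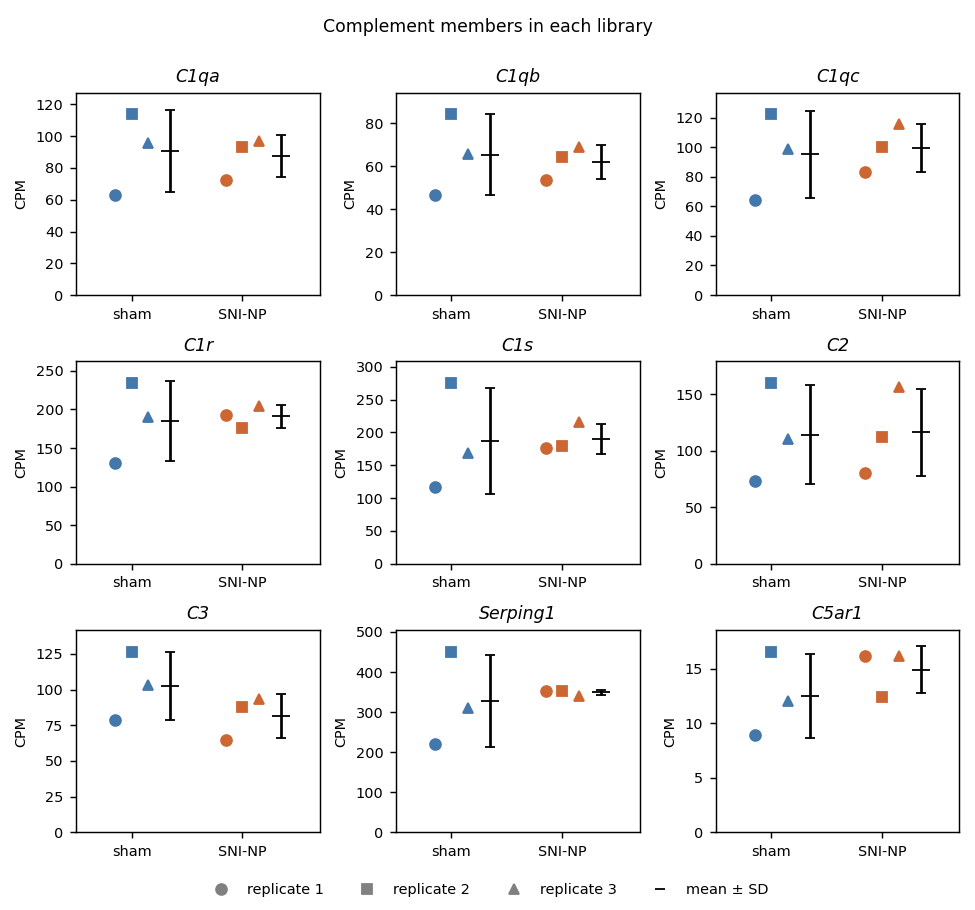
CPM of the 9 complement genes in each library, with 1 panel per gene, a linear axis from 0, 1 point per library (shape gives the replicate number) and the mean ± SD (n = 3) beside each group. Sham replicate 2 (blue square) is the highest value in all 9 panels, and sham replicate 1 (blue circle) is the lowest in 8, all but *C3*.

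The chains kept nearly the same proportion in every library. On the FPKM scale, which corrects for length, the ratio of *C1qb* to *C1qa* was between 0.663 and 0.716 over the 6 libraries, and that of *C1qc* to *C1qa* between 0.979 and 1.14. The largest ratio was thus 1.08 and 1.17 times the smallest, whereas the summed level of the chains ran from 174 to 320 CPM, a span of 1.84 times. The sum was 174, 320 and 260.1 CPM in the sham libraries and 209 (replicate 1), 257 and 281 CPM in the SNI-NP libraries.

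The proteases that C1q activates, *C1r* and *C1s*, had FPKM levels close to those of the C1q chains. *C1r* was at 130.2, 234 and 190.3 CPM in the sham libraries and at 193, 175 and 205 CPM in the SNI-NP libraries. *C1s* was at 117, 275 and 169 CPM in the sham libraries and at 176, 179 and 216 CPM in the SNI-NP libraries. For both genes the SNI-NP libraries lay within the sham range, which for *C1s* was the widest of the 9 genes, its highest sham value being 2.35 times the lowest. The log2 fold change was 0.05 (SE 0.20, edgeR adjusted p = 0.95) for *C1r* and 0.02 (SE 0.29, edgeR adjusted p = 0.982) for *C1s*.

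*C2*, the protease that joins C4 to form the enzyme acting on C3, was at 72.8, 159.8 and 109.9 CPM in the sham libraries and at 80.2, 112 and 157 CPM in the SNI-NP libraries. It was the gene with the widest spread among the SNI-NP libraries, where the highest value was 1.95 times the lowest. The log2 fold change was 0.03 (SE 0.33, 95% interval -0.73 to 0.79, edgeR adjusted p = 0.981). The *C2* count was not a whole number in 3 libraries, sham replicates 2 and 3 and SNI-NP replicate 3, and *C2* lies beside *Cfb* in the genome, so reads may have been divided between them and the *C2* level is uncertain in these libraries.

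*C3*, the component on which all pathways converge, was the only member with its lowest value in an SNI-NP library. It was at 78.8, 126 and 103 CPM in the sham libraries and at 64.4, 87.5 and 93.2 CPM in the SNI-NP libraries. The values of 2 SNI-NP libraries lay above the lowest sham value, so the groups overlapped. The sham mean was 103 ± 23.8 CPM and the SNI-NP mean 81.7 ± 15.3 CPM. The log2 fold change was -0.33 (SE 0.21, 95% interval -0.81 to 0.15, unadjusted p = 0.147, adjusted p = 0.56 by edgeR), the largest of the 9 in size. Without sham replicate 1 it was -0.51 with an unadjusted p of 0.0432, and without sham replicate 2 it was -0.15 with an unadjusted p of 0.484.

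Relative to 6 of the 8 other members *C3* was lower in every SNI-NP library than in every sham library, a comparison chosen after the values were seen, and the exceptions were *C1s* and *C2*. The FPKM ratio of *C3* to *C1qa* was 0.253, 0.225 and 0.218 for the sham libraries against 0.179, 0.19 and 0.194 for the SNI-NP libraries. The groups did not overlap, with means of 0.232 ± 0.0186 and 0.187 ± 0.00772. Such a separation of the CPM ratio to *C1qa* was found for 4.06% of the other genes tested, and an exact two-sided permutation test of 3 against 3 cannot give a p below 0.1. Of the 36 ratios between pairs of members, 8 separated the groups, and 6 of these 8 involved *C3*, as 8 of the 36 pairs do. The share of such separations over pairs of genes in general was not counted, so the 8 cannot be called many or few. These 6 ratios share the same *C3* values and are set against genes that moved together, so they are not separate observations. The other 2 of the 8 were *C1qc* to *C1qb* and *C5ar1* to *C1r*.

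**Figure D2:**
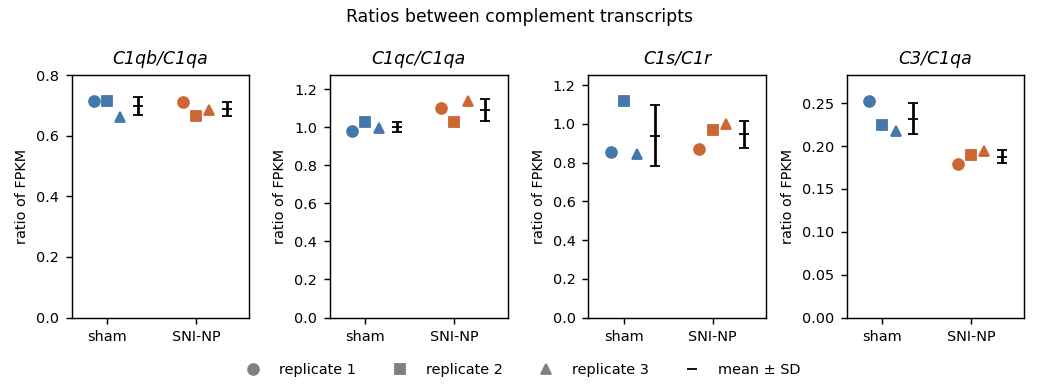
FPKM ratios of *C1qb* to *C1qa*, *C1qc* to *C1qa*, *C1s* to *C1r* and *C3* to *C1qa*, with 1 point per library and the mean ± SD (n = 3) beside each group, on linear axes from 0. The *C3* to *C1qa* ratio is 0.218 to 0.253 in the sham libraries and 0.179 to 0.194 in the SNI-NP libraries, whereas the groups overlap in the other 3 panels.

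*Serping1*, which encodes the C1 inhibitor that blocks C1r and C1s, was the most abundant member. It was at 222, 451 and 311 CPM in the sham libraries and at 353, 353 and 341 CPM in the SNI-NP libraries. The SNI-NP libraries were close to one another, the highest being 1.04 times the lowest, whereas the highest sham value was 2.03 times the lowest. The log2 fold change was 0.09 (SE 0.23, 95% interval -0.46 to 0.64, edgeR adjusted p = 0.907), and 0.39 with an unadjusted p of 0.0402 without sham replicate 2. The FPKM ratio of *Serping1* to *C1r* was between 2.40 and 2.95 in all 6 libraries.

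*C5ar1*, the receptor for the fragment C5a on myeloid cells, was the least abundant member. With counts of 148, 294 and 207 for the sham libraries against 281, 224 and 279 for the SNI-NP libraries, its levels were 8.88, 16.6 and 12.05 CPM against 16.2, 12.4 and 16.2 CPM. The groups overlapped, since sham replicate 2 had the highest value. The log2 fold change was 0.25 (SE 0.24, 95% interval -0.31 to 0.82, edgeR adjusted p = 0.704), and 0.51 with an unadjusted p of 0.0462 without sham replicate 2.

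The 95% intervals give the range of changes that the data allow for each gene. The lowest lower bound over the 9 genes was a fitted fold of 0.57, for *C3*, and the highest upper bound was 1.77, for *C5ar1*. For *C1qa*, *C1qb* and *C1r* the intervals of the fitted fold were 0.674 to 1.38, 0.672 to 1.34 and 0.742 to 1.44.

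**Figure D3:**
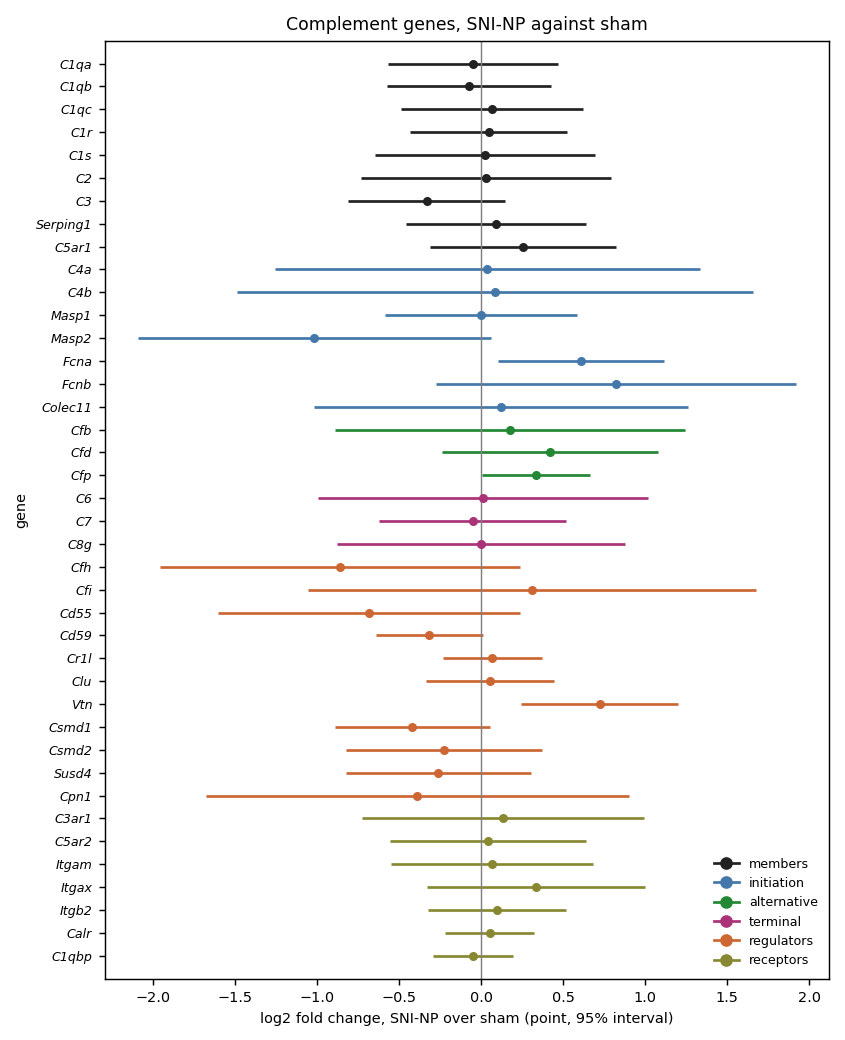
log2 fold change of SNI-NP over sham libraries for the 9 members and the 31 other complement genes tested, by edgeR's quasi-likelihood test, with the point estimate and its 95% interval, coloured by role. The intervals of all 9 members include 0, and those of *Fcna*, *Cfp* and *Vtn* lie above 0.

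The order of the levels was compared on the FPKM scale. *Serping1* was highest, with 177 ± 66.2 FPKM in the sham group against 182 ± 5.48 in the SNI-NP group, above 97.4% of the genes tested. It was followed by *C1qc* (88.8 ± 28.9 and 90.2 ± 16.0), *C1qa* (88.2 ± 26.6 and 82.6 ± 14.04), *C1r* (68.0 ± 20.5 and 67.9 ± 4.77), *C1s* (65.5 ± 29.7 and 64.3 ± 8.01), *C1qb* (61.5 ± 18.9 and 56.6 ± 8.24) and *C2* (44.7 ± 18.1 and 44.2 ± 15.02). These neighbours, from *C1qc* to *C2*, each differed from the next by less than their SD in sham libraries. *C3* stood at 20.2 ± 5.09 and 15.6 ± 3.20 FPKM, above 70.7% of the genes tested, and *C5ar1* at 6.53 ± 2.16 and 7.53 ± 0.959 FPKM.

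The spread among the sham libraries was a shared feature of the members. All 9 had the order sham replicate 1, replicate 3, replicate 2 from low to high, which 18.6% of all genes tested had. Over the 6 libraries, 8 of the 9 were lowest in sham replicate 1, against 17.6% of all genes, and 9 of the 9 were highest in sham replicate 2, as were 2591 of the 14426 genes tested. The highest sham value was on median 1.86 times the lowest over the 9 genes and 1.30 times over all genes tested, whereas among the SNI-NP libraries the medians were 1.30 and 1.30. The summed level of the 9 genes was 803, 1583 and 1155 CPM in the sham libraries and 1092, 1177 and 1309 CPM in the SNI-NP libraries.

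Among the sham libraries some markers of other cells had the order of the complement genes and others the opposite order. The astrocyte and oligodendrocyte sums were highest in replicate 1 and lowest in replicate 2, opposite to the complement genes. The sums in sham replicates 1, 2 and 3 were 5187, 3702 and 4502 CPM for astrocytes and 39610, 29300 and 32610 CPM for oligodendrocytes. *Gfap*, the intermediate filament of astrocytes, was at 863 CPM in sham replicate 1 and 332 CPM in sham replicate 2. Of the 7 detected markers of meninges and fibroblasts, 7 were highest in sham replicate 2 among the sham libraries, with sums of 5068, 6849 and 5596 CPM, and *Dcn*, a matrix proteoglycan, was at 632, 1428 and 817 CPM. In the SNI-NP libraries the sums ran from 3698 to 5028 CPM for astrocytes, from 28840 to 38480 CPM for oligodendrocytes and from 6425 to 7848 CPM for meninges and fibroblasts, and none of the detected markers in these lists was at 0. The part of these markers in the levels of the complement genes was not tested.

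Microglial markers (11 of 12 matched, none at 0) summed to 305, 390 and 340 CPM in the sham libraries and to 353, 322 and 355 CPM in the SNI-NP libraries. The largest sum was 1.28 times the smallest, and *Csf1r* was the most abundant gene in it. *Aif1*, which encodes the microglial protein Iba1, was at 12.01, 27.7 and 21.2 CPM in the sham libraries and 18.7, 22.3 and 21.5 CPM in the SNI-NP libraries, and *Csf1r*, a receptor that microglia need to survive, at 167, 215 and 188 CPM and 196, 179 and 184 CPM. *Aif1* shared the order of the C1q genes among the sham libraries, with the lowest value in replicate 1 and the highest in replicate 2. Of the 11 markers, 0 passed an unadjusted p of 0.05 by edgeR, against 10.8% of all genes tested.

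**Figure D4:**
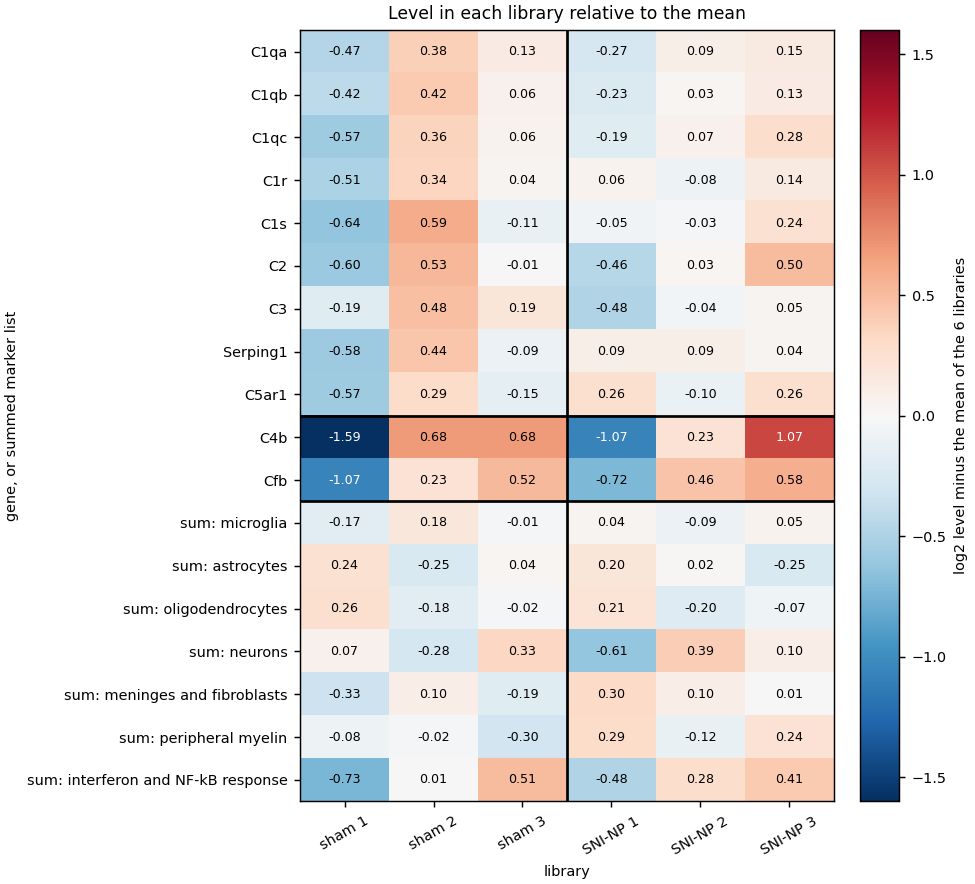
log2 level of each gene or summed marker list in each library, minus its mean over the 6 libraries, for the 9 members (top block), *C4b* and *Cfb* (middle block) and the summed markers (bottom block). The members run from -0.64 to 0.59, with sham replicate 1 below 0 and sham replicate 2 above 0 in all 9, and *C4b* and *Cfb* are below 0 in sham replicate 1 and SNI-NP replicate 1.

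The genes with the pattern most like that of the C1q chains were sought among 11271 genes with a mean of at least 5 CPM, by the root mean square difference of centred log2 CPM over the 6 libraries. *Arhgap28*, a gene for a GTPase-activating protein, was the closest (0.0629), followed by *Aoc3*, an amine oxidase of vessel walls (0.0772), *Emcn*, an endothelial sialomucin (0.0796), *Cxcl16*, a chemokine (0.0922), and *Hcls1*, a signalling protein of blood cells (0.0951), against a median of 0.343 over all genes. *C1r* had rank 40 by this measure and *C5ar1* rank 913. The genes closest to *C3* were *Galnt13*, *Rpf2*, *Pde1c*, *Mnat1* and *Fkbp5*, with differences from 0.0442 to 0.115, and the closest of the other members were *C1qb* and *C1qa*, at ranks 46 and 62. The measure says nothing of a shared function.

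The other genes of the cascade were taken from a list of 47, of which 43 matched the table and 31 passed the filter on low counts. With edgeR's quasi-likelihood test 0 of the 31 had an adjusted p-value under 0.05. At an unadjusted p-value under 0.05, 3 of the 31 were higher in SNI-NP libraries and 0 were lower, a share of 9.68% against 10.8% of all genes in either direction and 4.91% in the higher direction. In 4 of the 31 the groups did not overlap, against 18.5% of all genes, and 3 of these 4 were higher, against 10.4%. The fourth was *Masp2*, a lectin pathway protease at 1.32, 1.35 and 1.16 CPM in the sham libraries and 0.403, 0.444 and 1.04 CPM in the SNI-NP libraries. Its log2 fold change of -1.02 (SE 0.46) was not past the unadjusted threshold. The median log2 fold change of the 31 genes was 0.05.

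Among the inhibitors, 1 of 11 genes tested was past the unadjusted threshold. *Vtn*, which encodes vitronectin, a plasma and matrix protein that keeps the membrane attack complex from inserting, was at 98.03, 158 and 107 CPM in the sham libraries and at 232, 197 and 169 CPM in the SNI-NP libraries. Every SNI-NP value lay above every sham value, with a log2 fold change of 0.72 (SE 0.20, unadjusted p = 0.00878, adjusted p = 0.389 by edgeR). *Clu*, which encodes clusterin, a further inhibitor of the attack complex, was the most abundant complement gene of all, with a mean of 551 FPKM and a log2 fold change of 0.05 (SE 0.17). *Cd59*, a membrane inhibitor, had a log2 fold change of -0.32 (SE 0.14, unadjusted p = 0.0551 by edgeR), with overlapping groups.

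In the start of the lectin and classical pathways 1 of 7 genes tested was past the unadjusted threshold. *Fcna*, a ficolin that binds sugars on microbes, was at 5.34, 6.20 and 6.58 CPM in the sham libraries and at 9.89, 6.997 and 10.8 CPM in the SNI-NP libraries, a log2 fold change of 0.61 (SE 0.22, unadjusted p = 0.0242, adjusted p = 0.436 by edgeR). The unadjusted p was over 0.05 without sham replicate 1, SNI-NP replicate 1 or SNI-NP replicate 3. *Fcnb*, a ficolin of granulocytes and monocytes, was at 4.80, 11.0 and 20.4 CPM in the sham libraries and 25.0, 15.1 and 24.1 CPM in the SNI-NP libraries, with overlapping groups (log2 fold change 0.82, SE 0.47). Genes of neutrophils and their precursors summed to 39.2 to 134 CPM in the sham libraries and 102 to 200.4 CPM in the SNI-NP libraries (8 of 8 detected, 1 of them, *Mpo*, past the unadjusted threshold), and their part in the ficolin levels was not tested.

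*C4b*, which encodes the C4 protein cut by C1s, varied more than any member, with 12.2, 60.8 and 60.5 CPM in the sham libraries and 17.7, 44.2 and 79.9 CPM in the SNI-NP libraries. Sham replicate 1 and SNI-NP replicate 1 were low and the other 4 libraries high, and the log2 fold change was 0.09 (SE 0.67). *C4a* had 5.22, 7.32 and 10.48 CPM in the sham libraries and 2.19, 10.9 and 10.49 CPM in the SNI-NP libraries. The counts of both were not whole numbers in any of the 6 libraries, as can happen when reads are divided between near-identical copies, and their sum came to 290, 1210 and 1220 counts for the sham libraries against 345, 993 and 1559 counts for the SNI-NP libraries, with the same libraries low.

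In the alternative pathway 1 of 3 genes tested was past the unadjusted threshold. *Cfp*, which encodes properdin, the stabiliser of the enzyme that cuts C3, was at 10.6, 13.0 and 12.7 CPM in the sham libraries and at 15.8, 14.7 and 15.3 CPM in the SNI-NP libraries, a log2 fold change of 0.33 (SE 0.14, unadjusted p = 0.0471, adjusted p = 0.455 by edgeR). Leaving out any 1 library other than sham replicate 2 took the unadjusted p of *Cfp* over 0.05. So did each of the 7 other settings that kept all libraries and for which a value is reported here. These p-values ran from 0.0505 with upper-quartile factors to 0.0973 with the replicate block (both by edgeR), with 0.065 by DESeq2. The *Cfp* value from limma with a pseudocount of 1 is not reported here. *Cfb*, which encodes factor B, was at 25.5, 63.2 and 77.7 CPM in the sham libraries and at 32.6, 74.5 and 81.0 CPM in the SNI-NP libraries. It was low in the same libraries as *C4b*, sham replicate 1 and SNI-NP replicate 1, and its log2 fold change was 0.18 (SE 0.46). *Cfd*, the protease that cuts factor B, had a log2 fold change of 0.42 (SE 0.28, unadjusted p = 0.179 by edgeR). A second *Cfb* row, below the filter, held counts in the same 3 libraries in which the *C2* count was not whole.

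Of the terminal components, which form the membrane attack complex, 3 of 7 passed the filter on low counts and 0 passed the unadjusted threshold. *C7* was at 25.5, 43.8 and 31.4 CPM in the sham libraries and at 39.5, 24.4 and 33.3 CPM in the SNI-NP libraries, a log2 fold change of -0.05 (SE 0.24). *C6* and *C8g* had means of 0.555 and 1.13 FPKM. Over the 6 libraries together *C5* had 21 counts, *C8a* 6, *C9* 1 and *C8b* 0.

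Of the receptors for complement fragments, 7 genes were tested and 0 passed the unadjusted threshold. *C3ar1*, the C3a receptor, was at 4.26, 11.1 and 5.12 CPM in the sham libraries and at 7.36, 6.44 and 8.69 CPM in the SNI-NP libraries (log2 fold change 0.13, SE 0.37). *Itgam* and *Itgb2*, the chains of complement receptor 3 by which microglia take up C3-tagged material, had log2 fold changes of 0.06 (SE 0.26) and 0.10 (SE 0.18). *Itgam* had its lowest value, 17.1 CPM, in sham replicate 1 and its highest, 33.6 CPM, in sham replicate 2, as all members but *C3* did. *Itgb2* was also lowest in sham replicate 1, at 17.8 CPM, but was highest in SNI-NP replicate 1, at 26.1 CPM. Among the sham libraries, 2 of the 9 matched receptor genes were highest in replicate 2. *Calr* and *C1qbp*, which encode proteins that bind C1q and have other main roles in the cell, had log2 fold changes of 0.05 (SE 0.11) and -0.05 (SE 0.10).

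**Figure D5:**
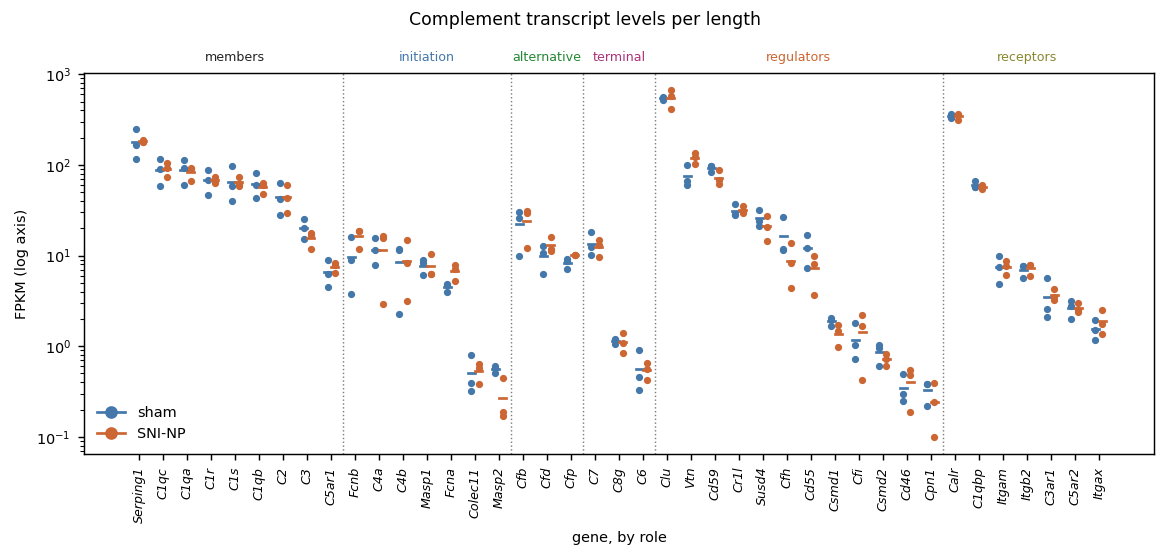
Deposited FPKM values of the members and of the other complement genes with a mean of at least 0.1 FPKM, by role, on a log axis, with 1 point per library and a bar at the group mean (sham in blue, SNI-NP in orange). *Serping1* is the highest member, *C5ar1* the lowest, and *Clu* the highest gene of the whole cascade.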

How the data were processed

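Libraries of spinal cord RNA, 3 labelled as sham and 3 as SNI-NP, were grouped by these labels. The members and gene lists were chosen with earlier results of these data known. For 22050 Ensembl genes the table deposited by the authors gives an estimated count, not normalized, and an FPKM value. The methods name the genome Rat6 and unique sequences, and the submitters' processing notes name FastQC, STAR and HTSeq; annotation release and strand setting are not given in the sources used here.

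Counts were rounded before testing. Genes passing filterByExpr (14426) were scaled by TMM and fitted in edgeR 4.0.16 under R 4.3.3, with group the only term in the quasi-likelihood test and Benjamini-Hochberg adjustment over all of them. CPM is the usual count scaled to library size, with TMM factors. Standard errors are the log2 fold change divided by the root of the F statistic. The deposited FPKM values served for comparisons between genes, and in limma version 3.58.1 as log2 of FPKM plus a pseudocount of 0.1 or 1. The study's methods name DESeq2, which was an alternative here (version 1.42.0), with RLE and upper-quartile factors, no filter, a minimum of 10 counts in all libraries, a replicate block, and each library left out. Both count tests were first checked on simulated data.

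The text names all 9 members, the other complement genes with an unadjusted p under 0.05, the 3 of each role with the highest FPKM, and the genes most like the C1q chains and *C3*; the others were chosen after their values were seen. Symbols of 4 listed complement genes (*Mbl2*, *Cd59b*, *Csmd3* and *Cd93*) matched no row and were not analysed here. Marker lists hold the genes reported here, and 2 further genes chosen for them are not reported here. Deviations from the group means of same-numbered libraries had correlations of 0.249, -0.184 and 0.08 over 11274 genes, so the numbers were not taken to pair the libraries.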

Additional observations from a re-analysis of the deposited data

How the results depend on the processing

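The number of members with an unadjusted p under 0.05 was 0 of 9 in the edgeR fit and under RLE factors, upper-quartile factors, DESeq2, both other filters and both limma fits. With the replicate block, which rests on a shared number only, it was 1 (*C3*, log2 fold change -0.32, unadjusted p = 0.0469). It ranged from 0 to 2 when each library was left out, with 1 without sham replicate 1 (*C3*) and 2 without sham replicate 2 (*Serping1* and *C5ar1*). Direction was kept in all 72 member values of the settings that kept every library, and changed in 15 of the 54 with a library left out. In those fits the log2 fold change ran from -0.27 to 0.15 for *C1qa*, -0.29 to 0.15 for *C1qb*, -0.17 to 0.29 for *C1qc*, -0.17 to 0.26 for *C1r*, -0.25 to 0.42 for *C1s*, -0.28 to 0.36 for *C2* and -0.15 to 0.39 for *Serping1*. For *C3* it was -0.51 to -0.15, and for *C5ar1* 0.04 to 0.51. The cause was not tested. The number of other complement genes past the unadjusted threshold was 3, and 2 to 4 in all settings. Over all genes 0 had an adjusted p-value under 0.05, against 211 by DESeq2, 2 by either limma fit, 222 without SNI-NP replicate 1 and 2 without sham replicate 2, and 0 of the 9 members was among them in any setting. At an unadjusted p under 0.05 the number was 1565, and it ran from 908 (sham replicate 1 omitted) to 2134 (sham replicate 2 omitted), with 917 when SNI-NP replicate 3 was omitted, 1019 when sham replicate 3 was and 1907 when SNI-NP replicate 1 was. The median log2 fold change of all genes moved by less than 0.1 in every setting.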

Other observations

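A list of interferon and NF-kB response genes (12 of 12 detected) was also measured. Its sum was 338, 566 and 799.6 CPM in the sham libraries and 404, 681 and 749.5 CPM in the SNI-NP libraries. The list did not move as one. *Irf7*, an interferon-induced transcription factor, was at 22.6, 117 and 240.0 CPM in the sham libraries and at 30.5, 159.8 and 185 CPM in the SNI-NP libraries. It was lowest in sham replicate 1 and SNI-NP replicate 1, which were also the lowest libraries of *C4b*, *Cfb* and 5 of the 9 members (*C1qa*, *C1qb*, *C1qc*, *C2* and *C3*). The share of all genes with this pattern was not counted. The pattern was not particular to interferon genes. The sum of the dorsal root ganglion genes was also lowest in these libraries, at 623 and 213 CPM, against 1046 to 1692 CPM in the others. *Nfkbia*, an inhibitor of NF-kB, was at 26.8, 40.6 and 29.3 CPM in the sham libraries and at 35.03, 24.5 and 40.7 CPM in the SNI-NP libraries, and was not low in SNI-NP replicate 1. Of the 12 genes, 1 (*Rela*, higher) had an unadjusted edgeR p under 0.05, and 0 an adjusted one, against 10.8% and 0% of all genes tested.

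Other marker lists were measured beside these. Red cell genes (5 of 6 matched) summed to 966.5 to 2357 CPM in the sham libraries and 2112 to 5083 CPM in the SNI-NP libraries, with 4 of the 5 past the unadjusted threshold and higher. Reactive astrocyte genes (8 of 9) summed to 2079 to 2920 CPM and 2743 to 3197 CPM, with 1 past it and higher, neuron genes (7 of 7) to 1200 to 1828 CPM and 952.5 to 1916 CPM, with 2 past it and lower, and endothelial genes (6 of 7) to 600.6 to 672 CPM and 604 to 729 CPM, with 0 past it. Genes of hepatocytes, the main source of plasma complement, summed to 5.16 to 10.48 CPM in the sham libraries and 10.6 to 13.7 CPM in the SNI-NP libraries (6 of 6 matched, 3 tested, 1 of them, *Hp*, past it and higher). Most of this sum came from *Hp* and *Serpina1*. *Alb*, *Apoa1* and *Fgb* were at no more than 0.282, 0.058 and 0.0582 CPM in any library, so the sum does not show a hepatocyte signal. Among the lists given before, 1 astrocyte gene and 1 ganglion gene were past the unadjusted threshold and lower. In the same lists 1 fibroblast gene and 1 peripheral myelin gene were past it and higher, and 0 oligodendrocyte genes passed. Of all genes tested, 10.8% were past this threshold in either direction, and 4.91% were past it and higher.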
